A study of Homo sapiens with 8 samples.

Results

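YAP and TAZ are transcriptional coactivators at the end of the Hippo pathway. The pathway's MST and LATS kinases phosphorylate them and hold them in the cytoplasm. In the nucleus they bind the TEAD transcription factors, which carry the DNA-binding domain, and switch on genes of adhesion, matrix and growth. Some of these genes encode pathway members that in turn restrain YAP and TAZ. In epithelia such as the urothelium this output is known to follow cell density, cell shape and tension of the actin cytoskeleton.

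The 10 genes described here are the regulators YAP1, WWTR1 (which encodes TAZ) and TEAD1, and 7 widely used target genes, CYR61, CTGF, ANKRD1, AMOTL2, LATS2, AJUBA and AXL. They were taken by name from a table of 58735 genes, in which CYR61 (now CCN1) and CTGF (now CCN2) stand under their older symbols. All 10 were among the 17413 genes that passed the filter on low counts.

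They were measured by RNA sequencing of SV-HUC1, an established line of human urothelial cells from a normal ureter that carries the SV40 virus genome. The treated group was 4 cultures given glucose oxidase at 20 mU per ml for 24 h, an enzyme that consumes glucose and oxygen and releases hydrogen peroxide. The control group was 4 cultures without the enzyme, labelled with the same duration. Both groups grew in the same serum-containing medium, the labels give each group biological replicates 1 to 4, and the comparison asks what the enzyme changes in the transcripts of this 1 line.

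Levels of a single gene are given as CPM, read counts scaled to the library total after TMM normalisation. Libraries held 21437267 to 27183692 counts in treated cultures and 21653952 to 23543702 in control cultures. Libraries with the same replicate number deviated together from their group means, with a correlation across genes of 0.50 to 0.68 in the 4 pairs. Each change is therefore given from a fit without the replicate number and from a fit with it as a block. Replicates 1 and 2 of both groups stood apart from replicates 3 and 4. That division was found in the expression values by earlier work on these data and is in no label, so what it stands for is not known. Differently numbered libraries within these sets also deviated together, with correlations of 0.44 to 0.65. The correlations therefore do not single out the replicate number as the pairing. All 9 epithelial markers looked at, among them KRT5, KRT7, EPCAM and GATA3, reached 1 CPM. Their summed level was 3839 to 4298 CPM in treated and 5117 to 7231 CPM in control libraries. With the block KRT5, KRT8 and KRT19 fell and GATA3 rose (edgeR adjusted p from 0.0017 to 0.034). That is 3 of 9 lower and 1 of 9 higher, beside 6.97% lower and 7.51% higher of all genes tested. Without the block edgeR called 0 of the 9. DESeq2 without the block called 2 lower, KRT19 (adjusted p = 0.0037) and KRT5 (0.016), beside 0.406% of all genes it tested. With the 2 sets of replicates in place of the replicate numbers KRT8 (edgeR adjusted p = 0.0998) and GATA3 (0.061) were not called. The part of these markers in the results below was not tested. Of the markers of other cell types, 2 of 6 fibroblast, 2 of 4 endothelial and 1 of 4 leukocyte genes reached 1 CPM. Their sums were 15.8 to 27.0, 2.49 to 5.88 and 2.56 to 3.82 CPM in treated libraries, against 17.0 to 26.8, 3.24 to 4.98 and 3.60 to 5.37 CPM in control libraries. In bulk libraries a change in the mix of cells and a change in RNA per cell cannot be told apart.

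RefSeq promoter windows of GRCh38.p14, which run from 250 bases before to 50 bases after a transcript start, were held for 8 of the 10 genes, in 12 windows. GGAATG, the core of the sequence bound by TEAD factors, was looked for on both strands. It occurred in 7 of the 12 windows and in 7 of the 8 genes, WWTR1 being the exception, and in 14.03% of all 35116 windows. Some windows of 1 gene lie near each other and the target genes are textbook TEAD targets, so the count is a description of these windows. The 3 windows shown are those of the gene whose transcript passed the test below and of the pair with the most copies. Capitals mark GGAATG, or CATTCC where the copy is on the other strand.
CTGF (chr6:131951323-131951622, minus strand): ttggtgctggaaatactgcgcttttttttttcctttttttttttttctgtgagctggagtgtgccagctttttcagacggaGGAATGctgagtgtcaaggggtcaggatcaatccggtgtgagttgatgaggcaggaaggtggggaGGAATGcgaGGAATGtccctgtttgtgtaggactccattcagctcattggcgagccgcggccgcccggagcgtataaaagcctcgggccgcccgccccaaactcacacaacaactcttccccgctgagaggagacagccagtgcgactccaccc
ANKRD1 (chr10:90921038-90921337, minus strand): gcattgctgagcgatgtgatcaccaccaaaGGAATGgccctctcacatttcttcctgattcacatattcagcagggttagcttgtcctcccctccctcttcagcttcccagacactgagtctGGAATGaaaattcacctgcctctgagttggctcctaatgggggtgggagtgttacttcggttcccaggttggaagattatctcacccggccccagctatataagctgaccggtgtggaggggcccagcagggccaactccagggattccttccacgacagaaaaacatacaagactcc
AMOTL2 (chr3:134374398-134374697, minus strand): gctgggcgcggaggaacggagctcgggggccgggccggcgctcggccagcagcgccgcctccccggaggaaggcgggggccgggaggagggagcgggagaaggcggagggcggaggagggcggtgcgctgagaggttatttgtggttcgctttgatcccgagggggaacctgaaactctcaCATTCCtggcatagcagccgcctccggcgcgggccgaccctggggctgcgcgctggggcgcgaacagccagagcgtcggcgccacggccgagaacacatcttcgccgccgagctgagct

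The CTGF window holds 3 copies, whose first bases lie at −169, −104 and −95 from the start. ANKRD1 has 2 copies, at −220 and −128. AMOTL2 has 1, on the opposite strand at −69, and its other window has none. For AP-1 factors, which often bind beside TEAD, the pattern TGANTCA was looked for, where N is any base. It was in the ANKRD1 window, as TGATTCA, and in 7.71% of all windows. Whether AP-1 factors bind that copy was not tested. The CArG box of the serum response factor was in 0 of the 12 windows and in 1.29% of all windows.

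Without the block, none of the 10 genes passed the test between treated and control cultures, and the background was also empty, with 0.0% of 17413 genes called (edgeR quasi-likelihood test, adjusted p under 0.05). At an unadjusted p under 0.05 that fit held 1284 genes, 7.37% of those tested, and 0 of the 10. DESeq2 without the block called 76 genes, 0.406%, and 0 of the 10. With the replicate block AMOTL2 alone rose and none of the 10 fell. That is 1 of 10, or 10%, beside 14.5% of all genes tested, with 7.51% higher and 6.97% lower. The treated and control libraries overlapped for every one of the 10 genes, while 5.02% of all genes had groups that did not overlap. The median fitted change of the 10 with the block was 0.13 on the log2 scale, against −0.01 over all genes tested. With a trend over gene length also removed from each library it was 0.05, again against −0.01. Taken as a group, then, the 10 genes were not called more often than other genes, with or without the block.

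**Figure D1:**
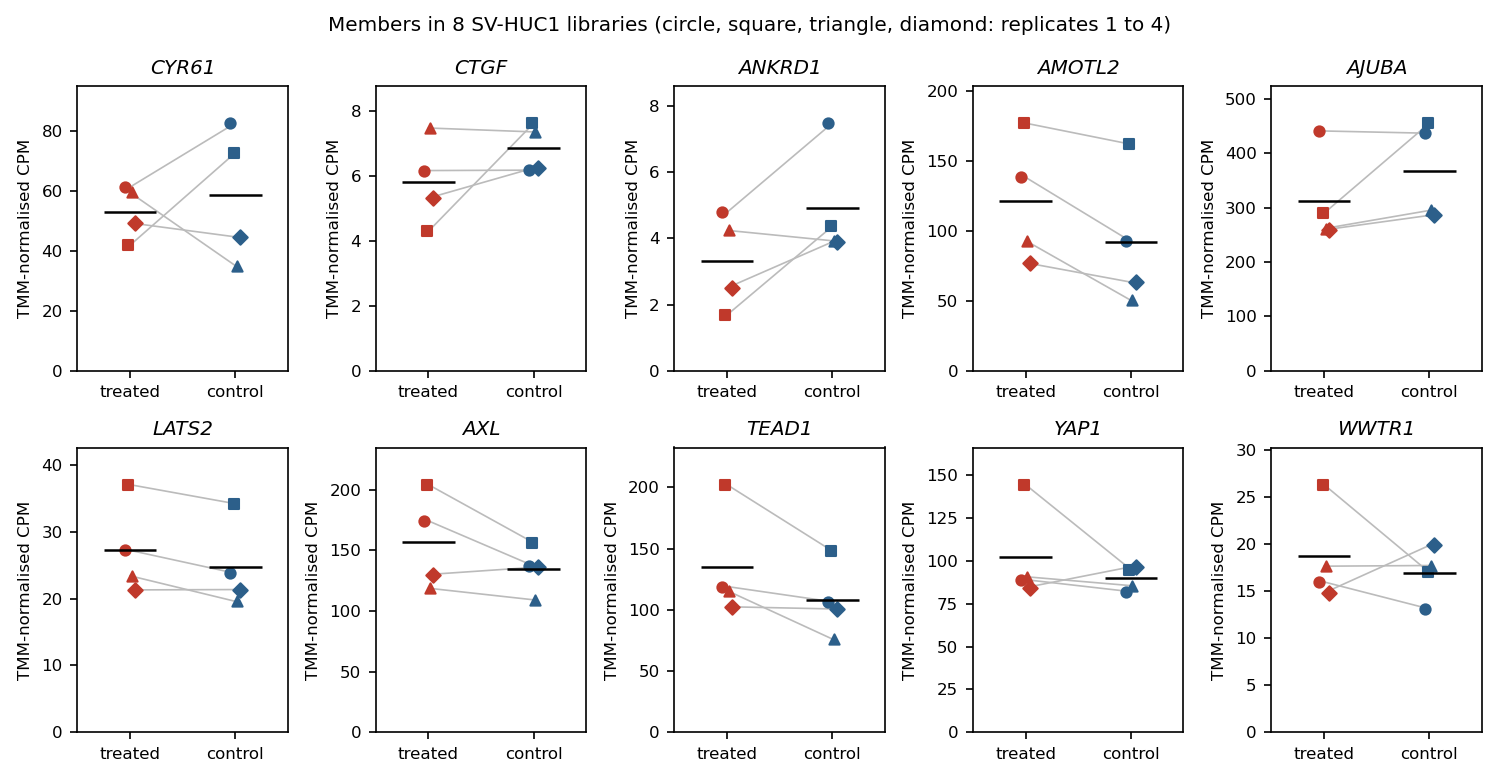
TMM-normalised CPM (vertical axis, from 0) of each of the 10 genes in the 4 treated libraries (red, left) and the 4 control libraries (blue, right); grey lines join libraries of equal replicate number and black bars are group means. The groups overlap in every panel, and AMOTL2 and TEAD1 are higher in the treated library of all 4 pairs.

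The regulators were expressed in every library. YAP1 (ENSG00000137693, chr11:102110461-102233423, plus strand) encodes YAP. It had 89.0, 144.3, 90.7 and 84.3 CPM in treated replicates 1 to 4, against 82.0, 94.8, 85.5 and 96.4 CPM in control replicates 1 to 4. Treated replicate 2 stood above the other 7 libraries, which lay close together. The mean was 102.1 ± 28.3 CPM in treated and 89.7 ± 7.05 CPM in control cultures (SD, n = 4 each). The fitted log2 change with the block was 0.15 ± 0.15 (SE; edgeR adjusted p = 0.535), with a 95% interval of −0.15 to 0.46.

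WWTR1 (ENSG00000018408, chr3:149517235-149736714, minus strand) had 16.01, 26.4, 17.7 and 14.8 CPM in treated libraries, against 13.1, 17.0, 17.8 and 19.9 CPM in control libraries. As for YAP1, treated replicate 2 was highest and the other treated libraries lay among the controls. The change with the block was 0.13 ± 0.16 (SE; edgeR adjusted p = 0.660). An annotated antisense gene, WWTR1-AS1, shares 795 exon bases with WWTR1 and had 13 to 38 counts, against 304 to 656 for WWTR1. Whether the authors counted by strand is not stated in these sources. Over the 8 libraries YAP1 and WWTR1 had the most alike profiles of the 45 pairs among the 10 genes, with a root mean square difference of 0.12 between their centred log2 CPM.

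TEAD1 (ENSG00000187079, chr11:12674591-12944483, plus strand) encodes the DNA-binding partner. It had 119.1, 202.2, 115.8 and 102.6 CPM in treated libraries, against 106.6, 148.1, 76.2 and 100.8 CPM in control libraries. Replicate 2 was highest in both groups, and the treated library was the higher one in all 4 pairs, a pattern that 16.9% of all genes tested share. The change was 0.31 ± 0.15 with the block (SE; edgeR adjusted p = 0.160). Without treated replicate 2, in the fit without the block, it was 0.08, against 0.32 with all libraries.

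The secreted targets did not pass the test in the comparison of all 8 libraries. CYR61 (ENSG00000142871, chr1:85580761-85583962, plus strand) encodes a matricellular protein that binds integrins. It had 61.3, 41.9, 59.5 and 49.4 CPM in treated libraries, against 82.6, 72.7, 35.1 and 44.7 CPM in control libraries. All treated libraries lay inside the range of the controls, which were widely spread. Means were 53.0 ± 9.09 CPM in treated and 58.8 ± 22.5 CPM in control cultures (SD, n = 4 each), and the change with the block was −0.09 ± 0.18 (SE; edgeR adjusted p = 0.797).

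CTGF (ENSG00000118523, chr6:131948176-131951373, minus strand) encodes a second CCN protein, which acts on matrix production. It had 6.17, 4.30, 7.48 and 5.32 CPM in treated libraries, against 6.18, 7.63, 7.36 and 6.25 CPM in control libraries. The pairs lay close in replicates 1 and 3, and treated was lower in replicates 2 and 4. The change with the block was −0.26 ± 0.19 (SE; edgeR adjusted p = 0.413). Its lowest count was 107, in treated replicate 2, with an exact 95% Poisson interval of 87.7 to 129 for counting error alone.

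ANKRD1 (ENSG00000148677, chr10:90912096-90921276, minus strand) encodes an ankyrin repeat protein best known from muscle. It had 4.79, 1.69, 4.24 and 2.51 CPM in treated libraries, against 7.48, 4.36, 3.93 and 3.89 CPM in control libraries. Treated was lower in replicates 1, 2 and 4 and slightly higher in replicate 3. With means of 3.31 ± 1.45 CPM in treated and 4.92 ± 1.72 CPM in control cultures (SD, n = 4 each), the change was −0.62 ± 0.23 with the block (SE; edgeR adjusted p = 0.071). Its 95% interval ran from −1.10 to −0.14. Without replicate 3, the pair in which treated was higher, the change was −0.86 and passed the test (edgeR adjusted p = 0.030). Without the block the change was −0.57 ± 0.36 (SE; edgeR adjusted p = 0.703), with an interval of −1.37 to 0.23. It also did not pass with the 2 sets in place of the replicate numbers (edgeR adjusted p = 0.263). With the block, neither total counts in place of TMM (0.206) nor removal of a gene length trend (0.162) gave a call, both edgeR adjusted p-values. The count was 42 in treated replicate 2, with a Poisson interval of 30.3 to 56.8, so counting error weighs more here than for any other of the 10.

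**Figure D2:**
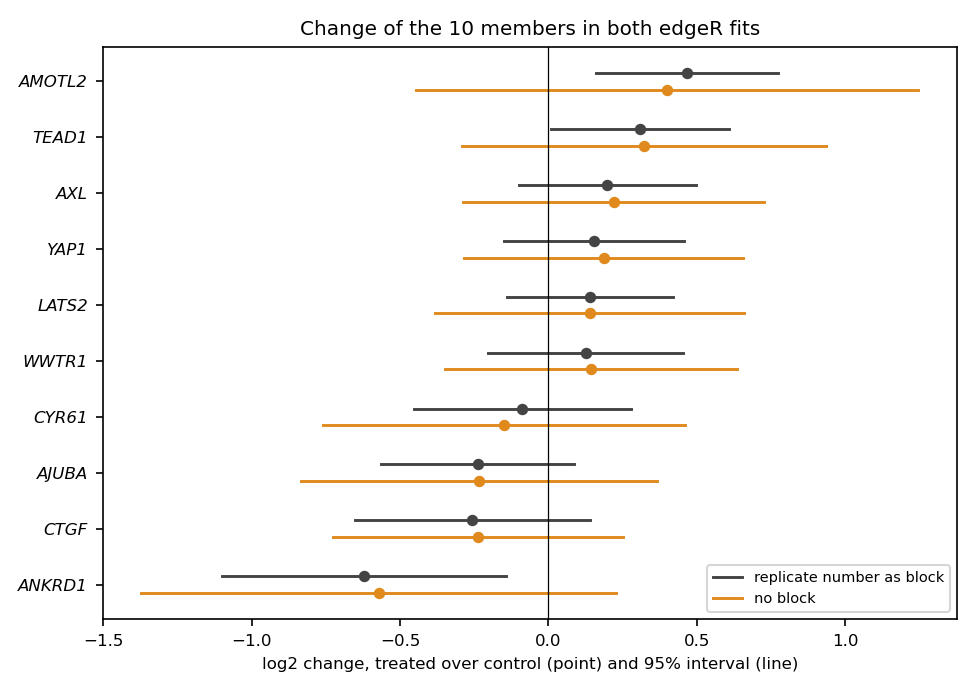
Fitted log2 change, treated over control (horizontal axis), of the 10 genes with its 95% interval, from the edgeR fit with the replicate number as block (dark) and without it (orange). With the block the intervals of AMOTL2 and TEAD1 lie above 0 and that of ANKRD1 below it, and after adjustment over all genes AMOTL2 alone passed; without the block all 10 intervals span 0.

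Among the targets that act back on the pathway, AMOTL2 rose. AMOTL2 (ENSG00000114019, chr3:134355874-134375479, minus strand) encodes an angiomotin family protein that binds YAP and holds it at junctions and in the cytoplasm. It had 138.3, 177.0, 93.1 and 77.3 CPM in treated libraries, against 92.5, 161.9, 50.5 and 63.4 CPM in control libraries. Treated was higher in all 4 pairs, by 0.58, 0.13, 0.88 and 0.29 on the log2 scale in replicates 1 to 4, although the groups overlap. Means were 121.5 ± 45.2 CPM in treated and 92.1 ± 49.8 CPM in control cultures (SD, n = 4 each). The change was 0.47 ± 0.15 with the block (SE; edgeR adjusted p = 0.035), with a 95% interval of 0.16 to 0.77. Without the block it was 0.40 ± 0.38 (SE; edgeR adjusted p = 0.773). The blocked call was lost without replicate 1 (adjusted p = 0.113), without replicate 3 (0.258) and without replicate 4 (0.077), and kept without replicate 2 (0.60 on the log2 scale, adjusted p = 0.019, all edgeR). It was also lost when the 4 replicate numbers were replaced by the 2 sets of replicates (edgeR adjusted p = 0.135), where 6.79% of all genes passed. The call of AMOTL2 also stood with total counts in place of TMM (adjusted p = 0.023, beside 12.7% of all genes called) and in DESeq2 with the block (0.020, beside 16.8%).

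LATS2 (ENSG00000150457, chr13:20973032-21061547, minus strand) encodes a kinase that phosphorylates YAP and TAZ. It had 27.2, 37.0, 23.4 and 21.3 CPM in treated libraries, against 23.8, 34.2, 19.6 and 21.3 CPM in control libraries. The pair ratios ran from −0.0035 to 0.26 on the log2 scale, and the change with the block was 0.14 ± 0.14 (SE; edgeR adjusted p = 0.538). AJUBA (ENSG00000129474, chr14:22971174-22982642, minus strand) encodes a LIM domain scaffold that binds LATS kinases and restrains them. It had 440.9, 289.8, 261.5 and 259.1 CPM in treated libraries, against 436.7, 455.2, 294.8 and 285.8 CPM in control libraries. Replicates 1 and 2 held the higher levels in control cultures, and treated replicate 1 alone matched them. The change with the block was −0.24 ± 0.16 (SE; edgeR adjusted p = 0.344).

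AXL (ENSG00000167601, chr19:41219203-41261766, plus strand) encodes the receptor tyrosine kinase for the ligand GAS6. It had 174.1, 204.0, 118.7 and 130.0 CPM in treated libraries, against 137.0, 156.1, 109.2 and 135.9 CPM in control libraries. Treated was higher in replicates 1 to 3 and slightly lower in replicate 4. The change with the block was 0.20 ± 0.15 (SE; edgeR adjusted p = 0.398). In the authors' deposited table, the log2 changes of the 10 genes ran from −0.57 to 0.40 with adjusted p-values of 0.716 to 0.913.

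The intervals set a bound on what these libraries can show. With the block, 9 of the 10 intervals lay within 1 log2 unit of 0, ANKRD1 being the exception, and no upper bound exceeded 0.77. Without the block, 8 of 10 lay within 1 unit, AMOTL2 and ANKRD1 being the exceptions.

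The change of CYR61 differed between the sets of replicates. In replicates 1 and 2 it averaged 51.6 CPM in treated and 77.7 CPM in control libraries, and there it fell by 0.61 on the log2 scale (edgeR adjusted p = 0.037). In replicates 3 and 4 it averaged 54.4 CPM in treated and 39.9 CPM in control libraries, a change of 0.45 (edgeR adjusted p = 0.136). The treated means are close, and the control means are apart. The difference of the changes, replicates 3 and 4 minus replicates 1 and 2, was 1.06 ± 0.26 (SE; 95% interval 0.52 to 1.60; edgeR adjusted p = 0.045), where 0.902% of all genes passed. It did not pass once any replicate number was left out, with values of 0.75 to 1.36 and edgeR adjusted p-values of 0.053 to 0.556. For the other 9 genes the difference ran from −0.68 to 0.71 (edgeR adjusted p from 0.321 to 0.997). ANKRD1 also fell in replicates 1 and 2, by 0.96 (edgeR adjusted p = 0.034), and its change in replicates 3 and 4 was −0.25 (0.643). Of the 10 genes, 2 fell and 0 rose in replicates 1 and 2, where 8.98% of all genes were called and 4.21% fell. In replicates 3 and 4, 0 of the 10 were called beside 8.29% of all genes. Each set holds 2 pairs, and as the division was found in these same values its test is no independent one.

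**Figure D3:**
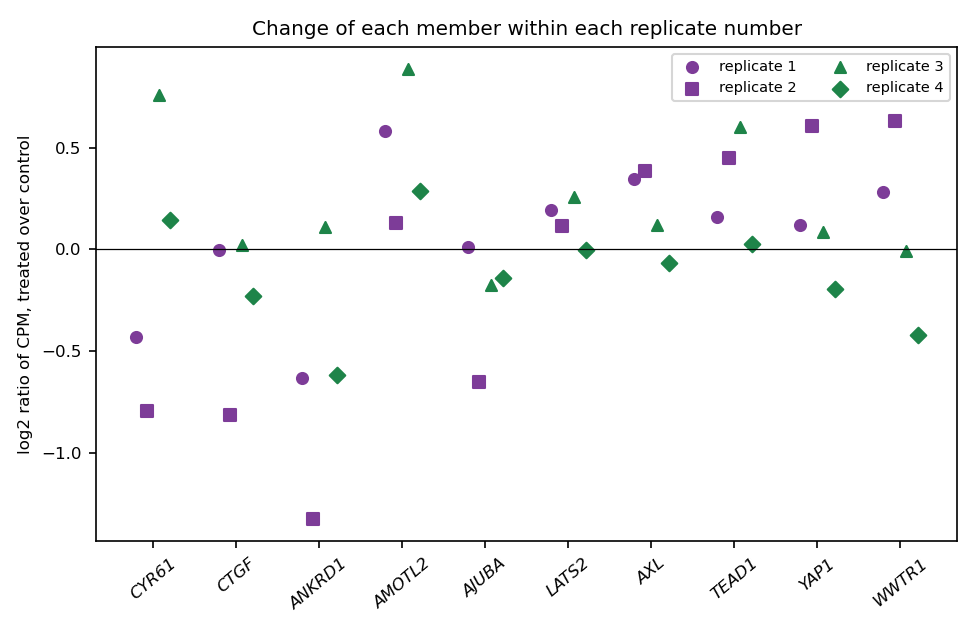
Log2 ratio of CPM, treated over control (vertical axis), of each of the 10 genes within each replicate number; purple points are replicates 1 and 2 and green points replicates 3 and 4. CYR61 has both purple points below 0 and both green points above it, and AMOTL2 and TEAD1 have all 4 points above 0.

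For 8 of the 10 genes treated replicate 2 was at an extreme. It was the highest of the 8 libraries for AMOTL2, LATS2, AXL, TEAD1, YAP1 and WWTR1, as for 26.0% of all genes tested. It was the lowest for CTGF and ANKRD1, as for 23.5% of all genes. The 2 genes lowest there are short and the 6 highest there are long. CYR61, CTGF and ANKRD1 have summed exons of 2455, 2339 and 1979 bases, while those of the other 7 genes run from 5154 to 10279 bases. Among all 1129 tested genes in the first length range the median change with the block was −0.13, with 3.37% higher and 10.3% lower. Among the 5477 tested genes in the second range it was 0.08, with 10.97% higher and 4.45% lower. Treated replicate 2 was highest for 12.4% of genes in the first range and for 36.6% in the second.

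With a length trend removed from each library, the change of AMOTL2 was 0.40 and no longer passed (edgeR adjusted p = 0.067). In that fit 0 of the 10 genes passed, beside 12.6% of all genes tested. TEAD1 then had 0.16, WWTR1 0.01, CYR61 0.0038 and ANKRD1 −0.50. In the fit without the block and without treated replicate 2, AMOTL2 had 0.18, LATS2 −0.029, YAP1 −0.011 and WWTR1 −0.050. The part that length or this library has in the changes was not tested further.

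**Figure D4:**
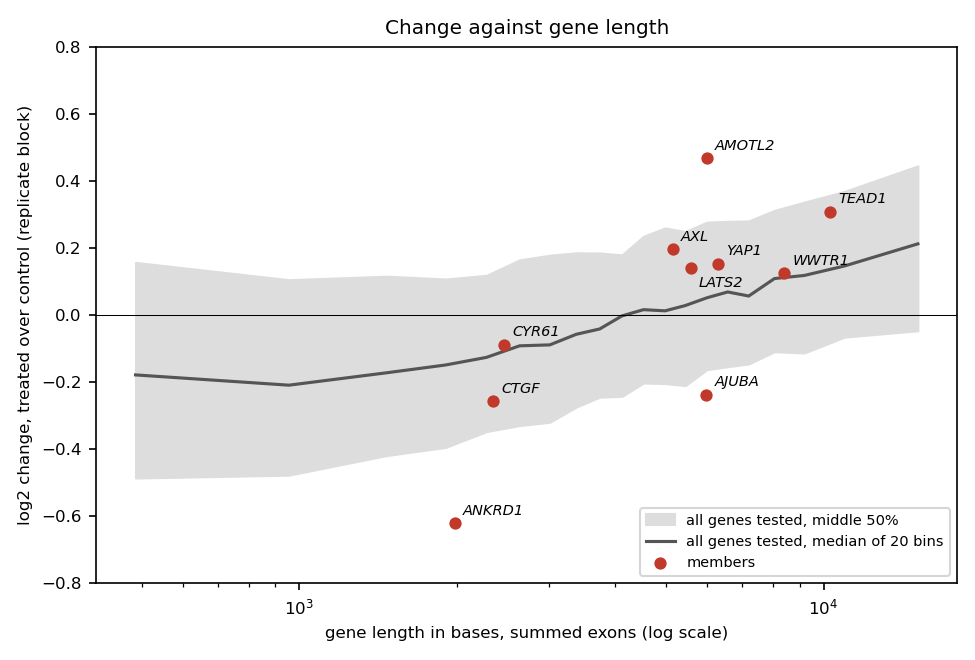
Fitted log2 change with the replicate block, treated over control (vertical axis), against summed exon length in bases (horizontal log axis), for the 10 genes (red points) and for all genes tested in 20 bins of length (line, median; grey band, middle 50%). CYR61 and WWTR1 lie on the line of all genes, and AMOTL2, ANKRD1 and AJUBA lie outside the band.

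Levels were compared between genes on the authors' FPKM, which divides by gene length. The order over all libraries was AJUBA, AXL, CYR61, AMOTL2, YAP1, TEAD1, LATS2, CTGF, WWTR1 and ANKRD1. AJUBA had 51.5 ± 14.2 FPKM in treated and 60.5 ± 13.4 FPKM in control cultures. At the other end ANKRD1 had 1.65 ± 0.74 FPKM in treated and 2.44 ± 0.83 FPKM in control cultures (SD, n = 4 each). AJUBA was above AXL, YAP1 above TEAD1, TEAD1 above LATS2 and LATS2 above CTGF in 8 of 8 libraries. The neighbours AXL and CYR61 kept their order in 6 of 8 libraries, CYR61 and AMOTL2 in 7, AMOTL2 and YAP1 in 5, CTGF and WWTR1 in 7, and WWTR1 and ANKRD1 in 4.

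**Figure D5:**
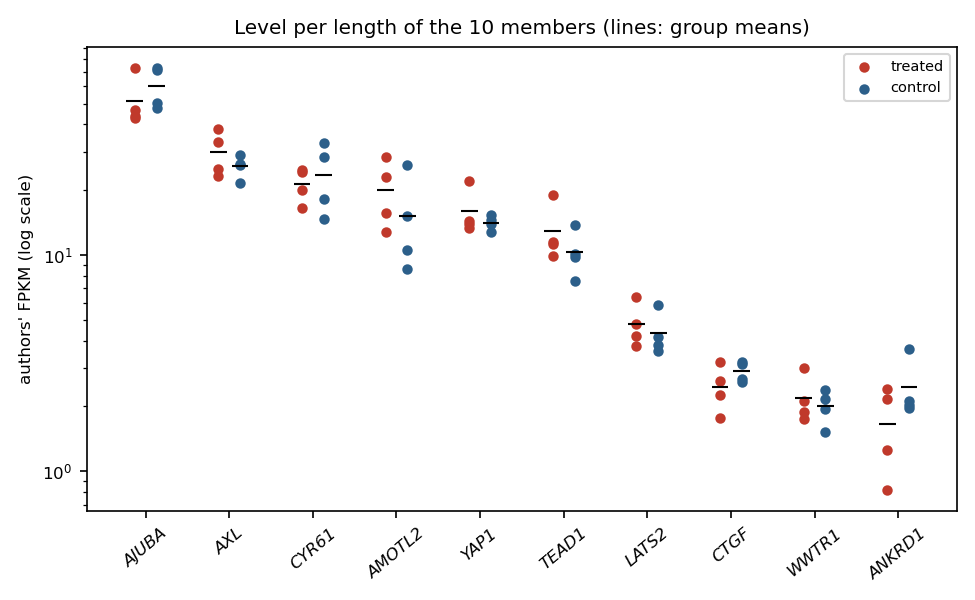
The authors' FPKM (vertical log axis) of the 10 genes in each library, ordered by mean level, with treated libraries in red on the left and control libraries in blue on the right; black lines are group means. AJUBA lies highest at 42.9 to 72.9 FPKM, and CTGF, WWTR1 and ANKRD1 lie lowest, between 0.82 and 3.68 FPKM.

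Among related genes, the FPKM of YAP1 was 6.85 to 7.59 times that of WWTR1 in treated libraries and 6.43 to 8.33 times in control libraries. TEAD1 was above TEAD2, TEAD3 and TEAD4 in 8 of 8 libraries. CYR61 was 7.58 to 9.47 times CTGF in treated libraries and 4.55 to 12.7 times in control libraries. LATS2 was 1.05 to 1.76 times LATS1 in treated libraries and 1.77 to 2.34 times in control libraries. The ends of these ranges nearly meet, and how often such ranges stay apart in other gene pairs was not looked at. AMOTL2 was above AMOT and AMOTL1 in 8 of 8 libraries.

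Genes with the most alike profiles were sought, by the root mean square difference of centred log2 CPM over the 8 libraries, among 10881 candidates that code for protein and average 5 CPM or more. For CYR61 they were CLBA1 (0.13), RAB24 (0.15) and SLC25A28 (0.16), where the median gene differed by 0.53. For ANKRD1 the nearest were further off, ZNF688 (0.28), ZNHIT2 (0.30) and TMEM238 (0.30), with a median of 0.70. For CTGF they were ZFY (0.05), ZNF518A (0.11) and ZNF43 (0.11), with a median of 0.42. Among the 10 genes themselves the closest pairs after YAP1 and WWTR1 were LATS2 with TEAD1 (0.14) and LATS2 with AXL (0.16).

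Of 19 upstream Hippo genes, all tested, LATS1 and TAOK1 rose with the block, 0 fell and 17 did not pass. That is 2 of 19, beside 14.5% of all genes called in the same fit. Without the block 0 passed in this list and in each of the lists below. The median change with the block was 0.24, and 0.10 with the length trend also removed, against −0.01 over all genes in both fits. LATS1, the sister kinase of LATS2, had 30.7, 54.9, 24.2 and 18.7 CPM in treated libraries, against 20.8, 25.9, 12.9 and 15.96 CPM in control libraries. Treated was higher in all 4 pairs, and the change was 0.70 ± 0.15 (SE; edgeR adjusted p = 0.0028). This call held without each replicate number in turn, with the length trend removed and with the 2 sets in place of the replicate numbers. TAOK1, a kinase that activates MST kinases, averaged 109.3 ± 21.6 CPM in treated and 74.7 ± 19.1 CPM in control cultures (SD, n = 4 each), a change of 0.57 (edgeR adjusted p = 0.013). Its call was lost without replicate 1 (0.085), without replicate 2 (0.051), with the 2 sets (0.082) and with the length trend removed (0.09998), where STK3, which encodes the kinase MST2, was called lower. Of 6 TEAD cofactors and paralogs, TEAD2, TEAD3, TEAD4, VGLL1, VGLL3 and VGLL4, 0 passed with the block. Their median change was 0.07, and 0.11 with the length trend removed.

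A published signature of YAP and TAZ targets has 22 genes and shares PTPN14 with the Hippo list above. Of its 16 genes outside the 10, 15 were tested, of which ASAP1 and NUAK2 rose, IGFBP3 and RBMS3 fell and 11 did not pass with the block. That is 2 of 15 in each direction, where 7.51% of all genes rose and 6.97% fell. ASAP1, a regulator of ARF GTPases, had 57.0, 98.6, 57.3 and 46.9 CPM in treated libraries, against 28.8, 61.2, 28.7 and 37.7 CPM in control libraries. Treated was higher in all 4 pairs, with a change of 0.75 ± 0.15 (SE; edgeR adjusted p = 0.0013). IGFBP3, which binds insulin-like growth factors, had 183.3, 178.1, 147.5 and 109.95 CPM in treated libraries, against 210.2, 273.4, 322.0 and 259.4 CPM in control libraries. The groups do not overlap, and the change was −0.80 ± 0.17 (SE; edgeR adjusted p = 0.0023). NUAK2, an AMPK-related kinase, averaged 25.1 ± 3.06 CPM in treated and 18.2 ± 8.82 CPM in control cultures (edgeR adjusted p = 0.025). RBMS3, an RNA-binding protein, averaged 1.46 ± 0.29 CPM in treated and 2.61 ± 0.38 CPM in control cultures (SD, n = 4 each; edgeR adjusted p = 0.041). The calls of ASAP1 and IGFBP3 held without each replicate number. With the 2 sets in place of the numbers IGFBP3 kept its call (adjusted p = 0.020), and ASAP1 (0.051), NUAK2 (0.111) and RBMS3 (0.059) did not, all by edgeR. Those of NUAK2 were lost without replicates 1, 3 or 4 (adjusted p from 0.061 to 0.286) and those of RBMS3 without replicates 1, 2 or 4 (0.113 to 0.215, all edgeR). In DESeq2 with the block 3 genes of this list were called higher and 1 lower. The list median was 0.14 with the block, and 0.02 with the length trend also removed.

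Of the other CCN family genes, the relatives of CYR61 and CTGF, 2 of 4 were tested. NOV (CCN3) rose to 12.5 ± 1.17 CPM in treated cultures, against 8.10 ± 2.59 CPM in control cultures (edgeR adjusted p = 0.014). WISP2 (CCN5), at 6 to 34 counts per library, fell to 0.46 ± 0.22 CPM in treated cultures, against 1.32 ± 0.41 CPM in control cultures (SD, n = 4 each; edgeR adjusted p = 0.011). The call of NOV was lost without replicate 3 (0.124) or replicate 4 (0.090) and with the 2 sets (0.0502), and that of WISP2 without replicate 2 (0.083). DESeq2 with the block called 1 gene of this family higher and 0 lower, so the fall of WISP2 was not called there. Both calls stand beside 14.5% of all genes called in the same fit.

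Actin cytoskeleton and smooth muscle genes driven by the serum response factor share regulators with YAP targets. Of 12 such genes 10 were tested, TAGLN, TPM1 and TPM2 fell, 0 rose and 7 did not pass. The list median was 0.01, and −0.04 with the length trend removed. The 3 of 10 that fell stand beside 6.97% of all genes. Among the 7 that did not pass, the largest changes were in opposite directions. They were 0.58 for ACTA2 (edgeR adjusted p = 0.092) and −0.37 for MYL9 (0.258). TPM1, a tropomyosin, had 80.6, 75.4, 74.4 and 79.6 CPM in treated libraries, against 107.8, 94.5, 132.5 and 115.0 CPM in control libraries. The groups do not overlap, and the change was −0.53 ± 0.14 (SE; edgeR adjusted p = 0.013). TPM2 averaged 60.9 ± 12.7 CPM in treated and 88.8 ± 21.3 CPM in control cultures, and TAGLN, which encodes transgelin, 3.71 ± 1.46 CPM in treated and 6.18 ± 1.61 CPM in control cultures (SD, n = 4 each). The call of TPM1 was lost without replicate 3 (0.119) or 4 (0.060), that of TAGLN without replicate 4 (0.071), and that of TPM2 without replicate 1 (0.153), 2 (0.052) or 3 (0.072) and with the 2 sets (0.070), all edgeR adjusted p-values.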

How the data were processed

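Total RNA from 4 treated and 4 control cultures was sequenced. The submitters' processing notes name, for the authors' own steps, the build GRCh38.p13 and, as tools, featureCounts 1.5.0-p3, HISAT2 2.0.5 and DESeq2 1.20.0. The authors deposited whole-number counts per gene, FPKM values, and a comparison table without a block, with its log2 fold change, its p-value and adjusted p-value, and a normalised signal per group. Tests used R 4.3.3 and edgeR 4.0.16 (filterByExpr, TMM, quasi-likelihood test, Benjamini-Hochberg over all 17413 genes, threshold 0.05), with the group alone or with the replicate number as a block. The number was taken as a pairing because same-numbered libraries correlated above 0.1 in all 4 pairs (0.53, 0.68, 0.59 and 0.50). Differently numbered libraries within a set of replicates did so too (0.44 to 0.65). The length correction was a loess trend per library. Within-group libraries differed beyond sampling noise, so none was merged. DESeq2 1.42.0 was an alternative. The labels speak of biological replicates without naming separate passages. Tests were tried on simulated counts. Gene positions and lengths are those of GENCODE 29. Named were the 10 genes, up to 4 called genes per list and direction, and the 3 nearest profiles. The members and lists were chosen with earlier results of these data known.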

Additional observations from a re-analysis of the deposited data

Results flagged for a closer look

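In 42 groups of 4 libraries, taken from 21 genes, the highest or lowest library was set against the rest by Dixon's ratio, which chance alone exceeds in about 1 of 20 groups. It stood apart in 5. Treated replicate 2 was the highest for TEAD1, at 202.2 CPM, and for YAP1, at 144.3 CPM. Treated replicate 1 was the highest for AJUBA, at 440.9 CPM. Among the controls, replicate 1 was the highest for ANKRD1, at 7.48 CPM, and replicate 3 the lowest for RBMS3, at 2.05 CPM. The change of CYR61 differed between the sets of replicates by 1.06 on the log2 scale, replicates 3 and 4 minus replicates 1 and 2 (edgeR quasi-likelihood test, adjusted p = 0.045). As the sets were found in these same values, that test is no independent one. The difference did not pass once any replicate number was left out.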

How the results depend on the processing

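The alternatives for the difference between sets, and the left-out replicates and length correction of the gene lists, were chosen after seeing the data. Genes called higher among the 10 were 0 without the block, 1 with it and 1 with DESeq2 and the block, and with the block 0 after length correction and 0 to 1 over left-out replicate numbers, where those called lower were also 0 to 1. Among Hippo genes 2 were higher with the block, 1 with the set term, 4 with total counts and the block, and 1 with length correction, which called 1 lower; left-out replicates gave 1 to 2 higher. In the signature 2 were higher with the block, 0 with the set term, 3 with total counts and 2 with length correction, and 2 lower with the block, 1 with the set term, 1 with total counts and 3 with length correction, with 1 to 2 in each direction over left-out replicates. PTPN14 counts in both the Hippo list and the signature, and was called higher with total counts and the block (edgeR adjusted p = 0.030). In the CCN family 1 was higher and 1 lower with the block and with total counts, 0 higher and 1 lower with the set term, and 0 to 1 in each direction over left-out replicates. Of the serum response factor targets 3 were lower with the block, 2 with the set term and 2 with total counts, and 1 to 3 over left-out replicates. DESeq2 with the block called 4 Hippo genes higher and 0 lower, and 3 signature genes higher and 1 lower. In the same fit 1 CCN gene was higher and 0 lower, and 0 serum response factor targets were higher and 3 lower. With total counts and the block the median of all genes was 0.10, against −0.01 with TMM. Fitted log2 changes turned sign as follows. CYR61, at −0.15 without the block, ran from −0.39 to 0.080 over left-out libraries, with 0.080 without control replicate 1. At −0.09 with the block it had 0.020 with total counts, 0.0038 with length correction, and −0.36 to 0.17 over left-out replicate numbers. LATS2 ran from −0.029 to 0.33 and YAP1 from −0.011 to 0.30, both lowest without treated replicate 2. WWTR1 ran from −0.050 to 0.32 without the block and from −0.034 to 0.30 with it. The difference of the CYR61 changes passed in 0 of the fits without 1 replicate number (0.75 to 1.36). Apart from AMOTL2, and ANKRD1 without replicate 3, the block changed no other call among the 10. The causes were not tested. Depth limits ANKRD1 and CTGF most, at 42 to 173 and 107 to 194 counts.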
